A study of Homo sapiens with 6 samples.

Results

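The MYC network in the colon epithelial line 1CT and its APC-depleted counterpart 1CT-A was described through 10 genes, chosen by symbol as MYC, its partners and its antagonists, out of 24462 symbols in the count files. The network comprised the MYC family (MYC, MYCN and MYCL), the shared partner MAX, the antagonists MXD1, MXD3, MXD4, MXI1 and MNT, and TFAP4, an E-box factor that is a known MYC target. All 10 symbols were found in the files, and none was entered more than once.

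MYC family proteins bind DNA only as heterodimers with MAX, at E-box sequences in gene promoters, and activate genes of ribosome production, metabolism and the cell cycle. The MXD proteins, MXI1 and MNT compete for MAX and for the same sites, and recruit the SIN3 corepressor instead. In colon epithelium MYC is a classical target of the β-catenin pathway that APC restrains, and TFAP4 lies downstream of MYC. Both the activating and the repressing dimers are built on MAX, so the balance of the partners is what the network is known for.

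The series held 3 RNA-seq libraries of 1CT, immortalized human colon epithelial cells with wild type APC, and 3 of 1CT-A, in which APC is knocked down, with no treatment in either line. By background knowledge these cells were immortalized with CDK4 and hTERT, and both lines were grown in the same medium with EGF, hydrocortisone, insulin, transferrin, selenite and serum. Each cell line stands for 1 derivation, and the labels do not say whether its libraries came from separate cultures, so p-values measure the spread between these libraries only. Reads came from 3′ libraries, in which each transcript is read near its poly(A) end, and levels are given as counts per 1000000 counts of the library (CPM) without division by gene length.

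Between 7788679 and 8452258 reads were counted in the 1CT libraries and between 11158108 and 12602988 in the 1CT-A libraries. The depleted gene, APC, averaged 46.6 ± 2.75 CPM in 1CT against 31.9 ± 2.21 CPM in 1CT-A (SD, n = 3 each), with no overlap. The labelled epithelial origin was only weakly visible in the transcripts, as EPCAM, CLDN3 and VIL1 were at 0 counts in all 6 libraries, and 10 epithelial markers together summed to 13.6 to 17.6 CPM (1CT) and 3.32 to 7.28 CPM (1CT-A). Of these, KRT18 (log2 fold change -1.19) and KRT19 (20, 27 and 34 counts in 1CT and 0 in 1CT-A) were lower in 1CT-A. By contrast 10 fibroblast markers, led by VIM and COL1A1, summed to 4717 to 5761 CPM (1CT) and 4391 to 4705 CPM (1CT-A), with 3 members higher and 4 lower in 1CT-A (3 and 5 without 1CT replicate 3). The largest change among them was a rise of COL3A1 from 47.8 ± 17.8 to 253 ± 15.0 CPM (SD, n = 3 each), with a log2 fold change of 2.37 (edgeR adjusted p = 2.7e-07). COL1A1 and VIM were lower, and VIM lost its call in 7 of 13 alternatives. Leukocyte and endothelial markers stayed at or below 15.3 and 6.52 CPM in sum, with PTPRC, VWF and CDH5 close to 0, and CD68 and TEK as the 2 tested members were lower, CD68 with a call that was lost in 8 of 13 alternatives. The part of such markers in the results on MYC was not tested. In 1CT replicate 3, 5.91% of the 8224 genes averaging 10 CPM or more lay more than 0.5 on the log2 scale from the mean of the other 1CT libraries, mostly below it (443 of 486 genes), against 0.219% to 2.03% in the other 5 libraries. The lists around MYC, the fibroblast markers and the genes that moved by over 1.5 times without this library are also given without it.

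The promoters of 8 members were matched to RefSeq sequences of GRCh38.p14, in 11 windows from 250 bases before to 50 bases after a transcript start. No promoter was matched for MYC or TFAP4, so theirs were not searched. The canonical MYC/MAX E-box, CACGTG (its own reverse complement), occurred in 2 of these windows, those of MXD4 and MNT, and in 7.26% of all 35116 windows. The 250 bases before the start of MXD4 and MNT are shown because these are the 2 searched windows with that E-box. MXD4 fell in 1CT-A and MNT did not pass the test. Capitals mark the E-box, which begins 238 bases before the start in MXD4 (chr4:2262110-2262359, minus strand) and 193 bases before it in MNT (chr17:2401061-2401310, minus strand).
MXD4: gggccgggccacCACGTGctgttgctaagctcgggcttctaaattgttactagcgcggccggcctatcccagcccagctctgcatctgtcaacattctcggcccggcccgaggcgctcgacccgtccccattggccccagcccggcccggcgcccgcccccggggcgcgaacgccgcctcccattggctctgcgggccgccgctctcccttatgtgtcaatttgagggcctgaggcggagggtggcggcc
MNT: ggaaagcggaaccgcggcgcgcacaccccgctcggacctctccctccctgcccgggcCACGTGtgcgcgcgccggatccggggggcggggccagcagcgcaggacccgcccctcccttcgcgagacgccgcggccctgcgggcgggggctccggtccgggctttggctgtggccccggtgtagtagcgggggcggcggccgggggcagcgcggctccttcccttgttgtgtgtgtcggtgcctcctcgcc

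Other letters were rarer or absent in the windows of the network. The E-box that TFAP4 is known to bind, CAGCTG (also its own reverse complement), occurred in 1 window, that of MXD3, against 17.9% of all windows. The variant E-box CACATG was found on either strand in 1 window, that of MYCL, against 11.1% of all windows. The TCF/LEF letters ATCAAAG, searched on both strands, occurred in none of the 11 windows and in 2.62% of all windows. The 11 windows include none of MYC or TFAP4. The 4 motifs do not overlap one another at these positions, and a match describes letters only.

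MYC and TFAP4 were higher in 1CT-A, MAX was slightly higher, and the antagonist MXD4 was lower. Of the 10 members, 8 had enough counts for the test, edgeR's quasi-likelihood test across all genes with an adjusted p under 0.05, and 4 of these passed it, with 3 higher and 1 lower. Across all 12514 genes tested 51% passed, 25% higher and 26% lower, so the count of 4 in 8 is near the background and it is the named changes that describe the network. In 5 of the 8 genes the libraries of the cell lines did not overlap, against 59.7% of all genes tested. In bulk samples fewer cells of a type and less RNA per cell cannot be told apart.

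**Figure D1:**
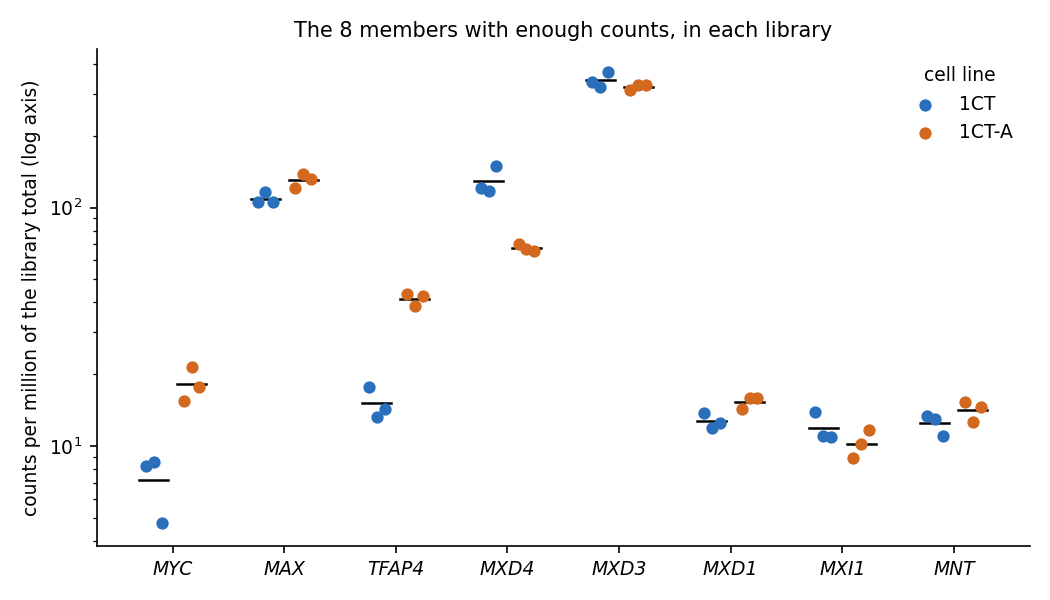
Level of the 8 tested genes in each library, in CPM on a log axis, with a point per library (blue 1CT, orange 1CT-A) and a black line at the mean of 3. MYC and TFAP4 lie higher in every 1CT-A library, MXD4 lies lower, and 1CT replicate 3 is the lowest point of MYC (4.75 CPM) and the highest of MXD4 in 1CT (149 CPM).

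MYC, which encodes the growth-promoting activator of the network and is annotated at chr8:127735434-127742951 (GRCh38, plus strand), had 70, 71 and 37 counts in 1CT and 172, 244 and 222 counts in 1CT-A. This is 8.28, 8.57 and 4.75 CPM against 15.4, 21.4 and 17.6 CPM. All 1CT-A libraries lay above all 1CT libraries, and the low value of 1CT replicate 3 was below the other two of its line. The 95% Poisson interval of that library, 3.34 to 6.55 CPM, did not reach that of replicate 2 (6.70 to 10.8 CPM). It met that of replicate 1 only at its lower end (6.46 to 10.5 CPM). In 1CT-A the intervals of replicate 1 (13.2 to 17.9 CPM) and replicate 2 (18.8 to 24.3 CPM) did not meet either. Such intervals cover counting error only. The log2 fold change was 1.29 (standard error 0.19, 95% confidence interval 0.87 to 1.71, adjusted p = 0.00012). Without 1CT replicate 3 it was 1.08 (edgeR adjusted p = 3.7e-05).

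MYCN and MYCL, the paralogs best known from neural and lung tissue, were at the limit of the data. MYCN had 1 count in 1CT replicate 2, 1 count in 1CT-A replicate 2 and 0 counts elsewhere. MYCL had 2, 1 and 0 counts in 1CT and 0, 0 and 1 counts in 1CT-A. Neither reached the 3 counts taken as the smallest visible level, which corresponds to 0.355 to 0.385 CPM (1CT) or 0.238 to 0.269 CPM (1CT-A), and no fold change is given for either. Nearly all counts of the family were therefore counts of MYC in both cell lines.

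MAX, the dimerization partner of all the others except TFAP4, had 889, 962 and 819 counts in 1CT and 1353, 1577 and 1664 counts in 1CT-A. In CPM these are 105, 116 and 105 against 121, 138 and 132, so that the lowest 1CT-A library lay just above the highest 1CT library. The log2 fold change was 0.22 (standard error 0.08, adjusted p = 0.027), and it missed the threshold without 1CT replicate 1 (0.20, edgeR adjusted p = 0.089), without 1CT-A replicate 2 (0.19, edgeR adjusted p = 0.11) and without 1CT-A replicate 3 (0.22, edgeR adjusted p = 0.082). MAX also shares 822 exonic bases with FNTB, a farnesyltransferase subunit gene on the other strand, whose log2 fold change was 0.55 (standard error 0.15). MAX took 88.7% to 91.5% of the counts of both genes in 1CT and 85.9% to 90.3% in 1CT-A, and the part of shared reads in the MAX value was not tested.

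TFAP4, the gene of a basic helix-loop-helix factor that binds E-boxes as a homodimer and does not need MAX, showed the largest log2 fold change of the 8 tested genes. It had 150, 110 and 111 counts in 1CT and 484, 442 and 535 counts in 1CT-A, which is 17.7, 13.3 and 14.3 CPM against 43.4, 38.8 and 42.5 CPM. The cell lines were far apart, with 15.1 ± 2.35 CPM in 1CT and 41.5 ± 2.42 CPM in 1CT-A (SD, n = 3 each). The log2 fold change was 1.42 (standard error 0.12, 95% confidence interval 1.17 to 1.67, adjusted p = 6.6e-07), a ratio of 2.68 between the cell lines. No exon of TFAP4 overlaps another gene of the count files in the annotation (GENCODE release 44). The intervals of TFAP4 and MYC overlap widely, so the data do not set one change above the other.

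MXD4, an antagonist associated with resting and differentiating cells, was the antagonist that passed the test. It had 1021, 975 and 1162 counts in 1CT and 788, 767 and 828 in 1CT-A, whose libraries were deeper. As CPM these are 121, 118 and 149 against 70.6, 67.3 and 65.7. Every 1CT-A library lay below every 1CT library, and here 1CT replicate 3 was the highest of its line. The log2 fold change was -0.97 (standard error 0.10, 95% confidence interval -1.18 to -0.75, adjusted p = 4.1e-06). Without 1CT replicate 3 it was -0.84 (edgeR adjusted p = 5.8e-08). Like TFAP4, MXD4 shares no exonic base with another gene of the count files, and it carries the E-box shown above.

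**Figure D2:**
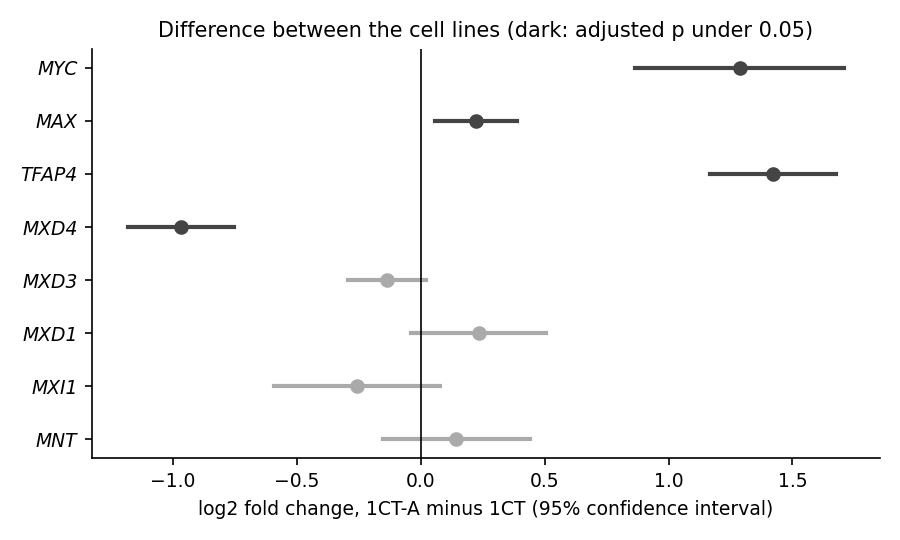
Change from 1CT to 1CT-A on the log2 scale for the 8 tested genes, with 95% confidence intervals from edgeR's quasi-likelihood fit, dark where the adjusted p was under 0.05. MYC (1.29), TFAP4 (1.42) and MAX (0.22) lie to the right of 0 and MXD4 (-0.97) to the left, and the intervals of MXD3, MXD1, MXI1 and MNT span 0.

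The other antagonists did not pass the test. MXD1, which is induced as cells leave the cycle, was at 13.7, 12.0 and 12.5 CPM in 1CT and at 14.2, 16.0 and 15.9 CPM in 1CT-A. Its libraries did not overlap, yet the log2 fold change of 0.23 had an interval from -0.04 to 0.51 (edgeR adjusted p = 0.14). MXD1 shares 237 exonic bases with SNRNP27 on the same strand, and took 23.3% to 26.2% of the counts of both genes, with wide intervals that overlapped in all 6 libraries. The part of shared reads in the MXD1 counts was not tested. MXI1, also known as MXD2, was at 13.8, 10.99 and 10.91 CPM in 1CT and 8.87, 10.2 and 11.7 CPM in 1CT-A, and the cell lines overlapped. Its log2 fold change was -0.26, with an interval from -0.59 to 0.08 (edgeR adjusted p = 0.19). MNT, the broadly expressed antagonist that is thought to set a baseline against MYC, was at 13.4, 12.9 and 11.04 CPM in 1CT and 15.2, 12.6 and 14.6 CPM in 1CT-A. These values overlapped as well, with a log2 fold change of 0.14 and an interval from -0.15 to 0.44 (edgeR adjusted p = 0.41), and 0.08 without 1CT replicate 3. The intervals leave room for changes of MXI1 down to -0.59 and of MXD1 up to 0.51, so these genes are not shown to be equal in the cell lines.

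MXD3, an antagonist usually linked to the S phase of dividing cells, held most of the antagonist counts, but these counts followed another gene. It had 2854, 2641 and 2888 counts in 1CT and 3458, 3704 and 4098 counts in 1CT-A. PRELID1, a mitochondrial lipid transfer gene on the opposite strand of chromosome 5 that was examined after the values were seen, had 5648, 5186 and 5728 counts in 1CT and 6812, 7265 and 8037 counts in 1CT-A. The number of MXD3 counts per PRELID1 count was 0.505, 0.509 and 0.504 in 1CT and 0.508, 0.510 and 0.510 in 1CT-A. MXD3 thus took 33.5% to 33.8% of the counts of both genes in each of the 6 libraries, and the 95% Wilson intervals of these shares, from 32.5% to 34.8% at their outer ends, all overlapped.

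In the annotation MXD3 and PRELID1 share 1148 exonic bases, which is 62.4% of the exonic bases of PRELID1 and 24.2% of those of MXD3. The log2 fold changes were also close, -0.14 for MXD3 (standard error 0.07, adjusted p = 0.14, and -0.06 without 1CT replicate 3) and -0.15 for PRELID1 (standard error 0.07, adjusted p = 0.11). RAB24, which shares 926 exonic bases with MXD3 on the same strand, gave no such constant share. MXD3 took 85.1% to 86.7% of the counts of that pair in 1CT and 88.9% to 90.1% in 1CT-A. RAB24 itself was lower in 1CT-A (log2 fold change -0.57, standard error 0.09, edgeR adjusted p = 1.6e-04), and the share depends on both genes. The part of shared reads in this pair was not tested. The sources used here do not say whether counting used the strand, and the part of PRELID1 reads in the MXD3 counts was not tested. The level of MXD3 is therefore uncertain in both cell lines, and sums over the antagonists are given with and without it.

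**Figure D3:**
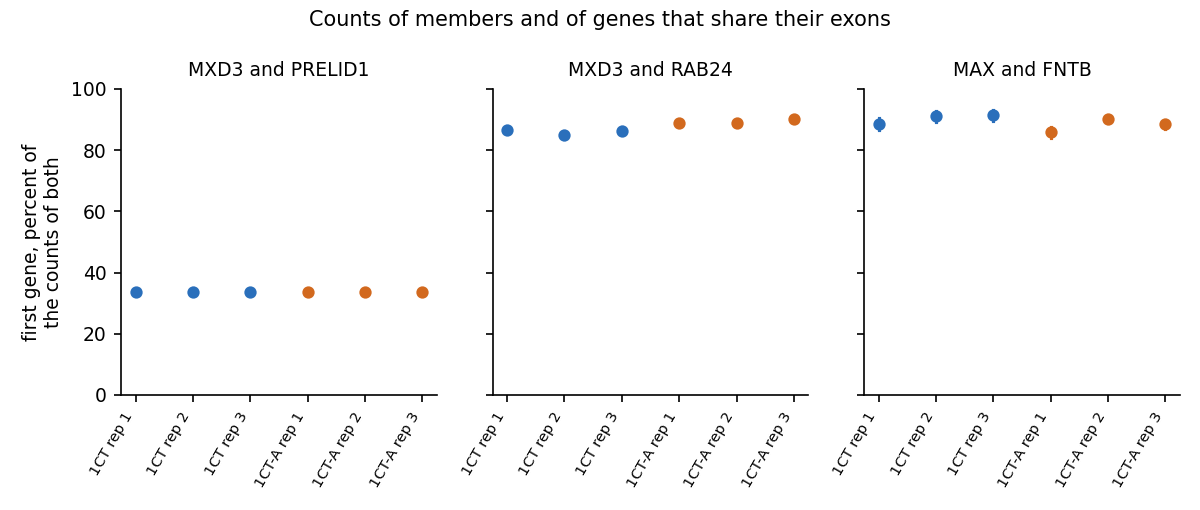
Share of the first gene in the summed counts of 2 genes with shared exons, in percent, in each library, with 95% Wilson intervals that cover counting error only. The share of MXD3 in the counts of MXD3 and PRELID1 stays at 33.5% to 33.8% in all 6 libraries, while the shares of MXD3 with RAB24 and of MAX with FNTB vary between libraries.

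Ratios within a library do not depend on the scaling of libraries. Per 100 counts of the 5 antagonists there were 1.66, 1.81 and 0.857 MYC counts in 1CT and 3.68, 4.97 and 4.07 in 1CT-A. Without MXD3 the numbers were 5.12, 5.58 and 2.59 in 1CT and 14.1, 20.2 and 16.3 in 1CT-A. Both versions include MXD1. The lowest 1CT-A library was above the highest 1CT library in both versions, and no test is given for a score over chosen genes. Per 100 counts of MXD4 alone there were 6.86, 7.28 and 3.18 MYC counts in 1CT and 21.8, 31.8 and 26.8 in 1CT-A. For MXD4 per 100 MAX counts the values were 115, 101 and 142 in 1CT and 58.2, 48.6 and 49.8 in 1CT-A, so MXD4 counts exceeded MAX counts in each 1CT library and were at most 58.2 per 100 in 1CT-A. In 1CT replicate 3 the MYC to MXD4 ratio was below, and the MXD4 to MAX ratio above, those of the other 1CT libraries.

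Genes that MYC is known to activate were mostly higher in 1CT-A. Of 46 such genes listed by textbook role, 44 were tested, 37 were higher, 3 were lower and 4 did not pass, with a median log2 fold change of 0.58, against -0.01 over all genes tested. The higher share of 84.1% stands beside 25% for all genes and 31.4% for genes averaging 10 CPM or more, a level that 42 of the 46 reached. Without 1CT replicate 3, 38 were higher and 3 lower. The list mixes roles that are regulated by other factors too. Like the lists that follow, it was chosen with earlier results of these data known, and no set test was run.

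The largest rises were those of CCND2, a D-type cyclin, from 53.6 ± 5.92 to 208 ± 9.11 CPM (SD, n = 3 each), with a log2 fold change of 1.92 (standard error 0.09). HK2, the hexokinase of the first step of glycolysis, rose from 30.3 ± 6.57 to 98.4 ± 4.53 CPM (log2 fold change 1.66, standard error 0.12). E2F2, a cell cycle transcription factor, rose from 3.26 ± 0.57 to 10.5 ± 0.66 CPM (log2 fold change 1.64, standard error 0.18). APEX1, a base excision repair endonuclease, rose by 1.01 on the log2 scale (standard error 0.14). Each of these had an edgeR adjusted p of at most 4.4e-05.

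Among the 3 lower genes of that list were TERT and ID2. TERT, the catalytic subunit of telomerase and one of the immortalizing genes, had 31, 21 and 58 counts in 1CT and 0 counts in every 1CT-A library, which is at least 17.7-fold lower when 3 counts per library are taken as the floor. Whether a 3′ library reads the introduced copy, the endogenous gene or both is not given in the sources used here. CDK4, the other immortalizing gene and one of the higher genes of that list, rose from 40.0 ± 1.51 to 81.5 ± 4.25 CPM (SD, n = 3 each). Its log2 fold change was 0.99 (standard error 0.08). Whether the CDK4 counts come from the introduced copy, the endogenous gene or both is likewise not given. ID2, an inhibitor of helix-loop-helix factors, fell from 56.9 ± 1.92 to 44.3 ± 1.89 CPM (log2 fold change -0.40, standard error 0.08, adjusted p = 0.0011).

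**Figure D4:**
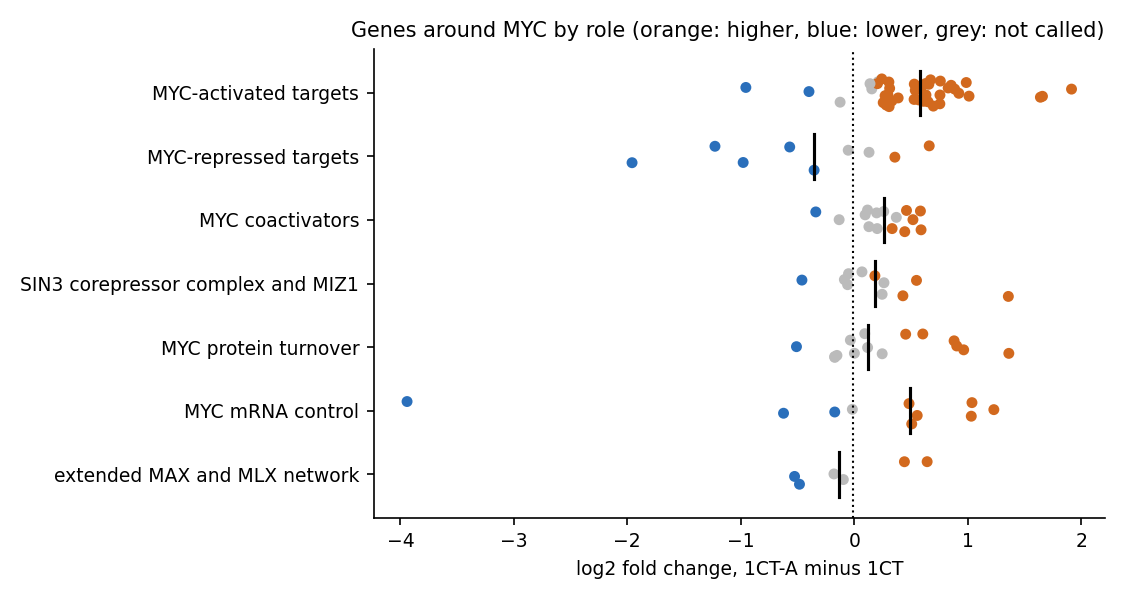
Change from 1CT to 1CT-A on the log2 scale for the tested genes of 7 lists around MYC, a point per gene, orange where higher and blue where lower at an adjusted p under 0.05 and grey otherwise, with a black bar at each list's median and a dotted line at the median of all genes. The MYC-activated targets have their median at 0.58 and the MYC-repressed targets at -0.35, and TERT, which had no counts in 1CT-A, is left out of the points.

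Genes that MYC is known to repress went in both directions. Of 11 listed, 9 were tested, 5 were lower, 2 were higher and 2 did not pass, with a median log2 fold change of -0.35. The lower share of 55.6% stands beside 26% for all genes and 23.4% for genes averaging 10 CPM or more. Without 1CT replicate 3, 5 were lower and 3 higher, with a median of -0.48. The falls were those of CCND1 (log2 fold change -1.96), CDKN1A (-1.23), the growth factor receptor gene PDGFRB (-0.98, standard error 0.13), the matrix glycoprotein gene THBS1 (-0.57, standard error 0.15, and -0.31 without 1CT replicate 2) and the damage-induced gene GADD45A (-0.35). PDGFRB is also on the fibroblast list. The rises were those of the cyclin-dependent kinase inhibitor genes CDKN1B (0.66, standard error 0.14) and CDKN2B (0.36, standard error 0.12, adjusted p = 0.02). The call of CDKN2B was lost in DESeq2 (adjusted p = 0.059) and without 1CT replicate 2 (edgeR adjusted p = 0.06), 1CT-A replicate 2 (0.059) or 1CT-A replicate 3 (0.056).

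Of 15 genes of cofactors that MYC uses to activate genes, 6 were higher, 1 was lower and 8 did not pass, and the median log2 fold change was 0.26. The shares of 40% higher and 6.67% lower stand beside 25% and 26% of all genes tested. For genes averaging 10 CPM or more, a level that 14 of the 15 reached, they were 31.4% and 23.4%. The share called was no larger than the 51% of all genes. Without 1CT replicate 3, 7 were higher and 1 lower. ACTL6A, a chromatin remodelling subunit, rose by 0.59 on the log2 scale (standard error 0.13). WDR5, which tethers MYC to chromatin, rose from 111 ± 3.05 to 171 ± 10.6 CPM (log2 fold change 0.58, standard error 0.07). RUVBL1 (0.52, standard error 0.08) and the acetyltransferase gene KAT5 (0.46, standard error 0.08) rose as well. EP300, another acetyltransferase gene, fell by 0.34 on the log2 scale (standard error 0.12, edgeR adjusted p = 0.029). That call was lost in DESeq2 (adjusted p = 0.068), without a filter (edgeR adjusted p = 0.07) and without 1CT replicate 1 or 2 or 1CT-A replicate 2 or 3 (edgeR adjusted p = 0.07 to 0.12).

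MXD proteins and MNT recruit the SIN3 corepressor. Of 11 genes of that complex with its histone deacetylases and ZBTB17, the MIZ1 factor through which MYC represses, 4 were higher, 1 was lower and 6 did not pass, with a median log2 fold change of 0.18. The shares of 36.4% higher and 9.09% lower stand beside 25% and 26% of all genes. For genes averaging 10 CPM or more, a level that all 11 reached, they were 31.4% and 23.4%. The count called is therefore near the background, and it was the same without 1CT replicate 3. SAP30, a small SIN3 subunit, rose from 11.4 ± 2.35 to 30.0 ± 0.96 CPM (SD, n = 3 each; log2 fold change 1.36, standard error 0.13, adjusted p = 3.2e-06). HDAC2 (0.55, standard error 0.11) and RBBP7 (0.43, standard error 0.10) also rose. HDAC1 was at 0.18 (standard error 0.07, adjusted p = 0.043) and lost its call in 7 of 13 alternatives, among them the replicate block (edgeR adjusted p = 0.089), DESeq2 (adjusted p = 0.063) and the fits without 1CT replicate 1 or any 1CT-A replicate (edgeR adjusted p = 0.076 to 0.12). SIN3B, a scaffold of the complex, fell from 47.7 ± 2.62 to 35.6 ± 1.42 CPM (log2 fold change -0.46, standard error 0.09). SIN3A, the other scaffold, was at 0.25 (standard error 0.15) and ZBTB17 at -0.05 (standard error 0.18), neither past the threshold.

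Genes of MYC protein turnover were higher in 6 of 15 tested cases, lower in 1 and not past the threshold in 8, out of 16 listed, with a median log2 fold change of 0.12. These shares, 40% higher and 6.67% lower, stand beside 25% and 26% of all genes, and the count called is near the background of 51%. For genes averaging 10 CPM or more, a level that 13 of the 16 listed reached, 31.4% were higher and 23.4% lower. Without 1CT replicate 3, 6 were higher and 2 lower, with a median of 0.21. FBXO32 rose from 3.41 ± 0.51 to 9.03 ± 2.18 CPM (log2 fold change 1.36, standard error 0.23). SKP2, a ubiquitin ligase subunit that is active in S phase, rose by 0.96 (standard error 0.09), AURKA, a mitotic kinase, by 0.90 (standard error 0.07), and CIP2A, a phosphatase inhibitor entered as KIAA1524, by 0.88 (standard error 0.10). BTRC, a ubiquitin ligase subunit that also recognizes β-catenin, fell by 0.51 on the log2 scale (standard error 0.11). FBXW7, the ligase best known for degrading MYC, was at -0.17 (standard error 0.08) and did not pass.

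The list named MYC mRNA control held 10 genes of nucleic acid-binding proteins that act on MYC mRNA or on the MYC gene. They changed in both directions, with 6 higher, 3 lower and 1 not past the threshold, and a median log2 fold change of 0.49. The shares of 60% higher and 30% lower stand beside 31.4% and 23.4% of genes averaging 10 CPM or more, and the counts were the same without 1CT replicate 3. IGF2BP1, which stabilizes MYC mRNA, fell most, from 95, 138 and 115 counts in 1CT to 5, 18 and 10 counts in 1CT-A (log2 fold change -3.94, standard error 0.30, adjusted p = 3.0e-07). Its paralog IGF2BP2 fell from 261 ± 13.6 to 174 ± 7.56 CPM (log2 fold change -0.62, standard error 0.07), and IGF2BP3 was at -0.02 (standard error 0.09). HNRNPD, an AU-rich element binding protein, rose from 180 ± 22.6 to 434 ± 22.1 CPM (log2 fold change 1.23, standard error 0.09). ELAVL1 rose by 1.04 on the log2 scale (standard error 0.11) and CNBP by 0.55 (standard error 0.07). ZFP36, a decay factor of unstable mRNAs, had 112, 70 and 21 counts in 1CT and 161, 227 and 219 in 1CT-A (log2 fold change 1.03, standard error 0.32, edgeR adjusted p = 0.016), and lost its call in DESeq2 (adjusted p = 0.14) and without 1CT-A replicate 2 (edgeR adjusted p = 0.066). Its lowest library was 1CT replicate 3, as for MYC, and its log2 fold change was 0.64 without that library (edgeR adjusted p = 0.007) and 1.57 without 1CT replicate 1 (edgeR adjusted p = 0.0011). ZFP36L1 was at -0.17 (standard error 0.06, adjusted p = 0.031) and lost its call in 7 of 13 alternatives, among them library size as the only scaling (edgeR adjusted p = 0.07), the replicate block (0.068) and the fits without 1CT replicate 2 or any 1CT-A replicate (0.068 to 0.12).

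The wider network of MAX and the MAX-like protein MLX, with other E-box factors and the MLX targets TXNIP and ARRDC4, held 8 listed genes. Of the 6 tested, 2 were higher, 2 were lower and 2 did not pass, with a median log2 fold change of -0.14. That is 33.3% in each direction, beside 25% higher and 26% lower of all genes, and it was the same without 1CT replicate 3. MLX itself rose from 49.8 ± 5.70 to 80.0 ± 7.03 CPM (log2 fold change 0.64, standard error 0.10, adjusted p = 1.2e-04), and its glucose-sensing partner MLXIP fell from 112 ± 10.0 to 82.1 ± 4.19 CPM (-0.48, standard error 0.09). USF2, another E-box factor, rose by 0.44 on the log2 scale (standard error 0.09). ARRDC4 fell by 0.53 (standard error 0.19, edgeR adjusted p = 0.03), a call that was lost without 1CT replicate 1 or 2 or 1CT-A replicate 1 or 3 (edgeR adjusted p = 0.065 to 0.16). TXNIP was at -0.10 (standard error 0.15). MGA, a large MAX-binding repressor, was at -0.18 (standard error 0.16) and did not pass.

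The genes whose profile over the 6 libraries was nearest to that of MYC were URB2, HSPE1-MOB4, HNRNPH3, C9orf64 and MGST1. Nearness was the Euclidean distance between log2(CPM + 1) values centred on each gene's mean, among tested genes averaging 10 CPM or more, and it was 0.23 to 0.30 for these 5 genes against a median of 1.58. With 2 cell lines of 3 libraries the profile is mostly the difference between the lines. The rest includes the low value of 1CT replicate 3 and the spread within 1CT-A (15.4 to 21.4 CPM for MYC). HNRNPH3, with 2919, 2824 and 1677 counts in 1CT, and MGST1, with 3836, 3492 and 1727, were also lowest in that library, which the choice by nearness to MYC favours and which therefore says nothing further about the MYC value. HSPE1-MOB4 is a read-through symbol that overlaps HSPE1, so its counts are uncertain.

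**Figure D5:**
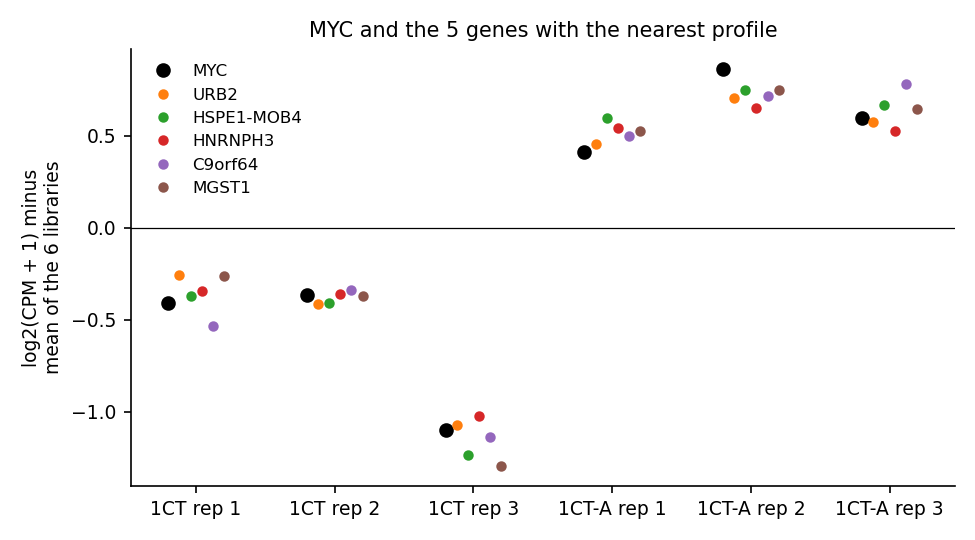
log2(CPM + 1) of MYC (black) and of the 5 genes with the nearest profile (colours), each minus its mean over the 6 libraries, by library. All 6 genes lie below their mean in 1CT, lowest in 1CT replicate 3, and above it in every 1CT-A library.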

How the data were processed

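QuantSeq 3′ libraries were prepared from total RNA extracted with Trizol and sequenced on a NextSeq instrument, per the labels. The authors deposited raw counts, whole numbers of reads per gene symbol, with 25737 entries per library. The submitters' processing notes name hg19, Bowtie2 and edgeR. The counting tool, the annotation and the use of strand are not given in the sources used here. Coordinates and exon overlaps come from GENCODE release 44 on GRCh38 and describe that annotation, not the counting.

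Repeated symbols (286) were summed. edgeR 4.0.16 (R 4.3.3) was run with TMM factors (0.976 to 1.02) on the genes that filterByExpr kept at a count of 10 or more. The quasi-likelihood test had no replicate term, and p-values were adjusted by Benjamini-Hochberg over 12514 genes and called under 0.05. CPM are counts per 1000000 counts of a library, without TMM. With 3 libraries a line, the smallest p of an exact permutation test is 0.1. The fit was tested on simulated data. Alternatives used DESeq2 1.42.0 and limma 3.58.1. The 10 genes and the lists were chosen with earlier results of these data known. Named were all 10 genes, APC, CDK4 and TERT, up to 4 called rises and 4 called falls per list, and the 5 profiles nearest to MYC; 1 gene that this rule names is not reported here. PRELID1, RAB24, FNTB, SNRNP27 and further genes outside this rule were picked after their values or positions were seen, as were list genes that did not pass. Same-numbered libraries did not deviate together (correlations -0.16, 0.22 and -0.14) and were not treated as pairs.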

Additional observations from a re-analysis of the deposited data

How the results depend on the processing

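The number of called members stayed between 3 and 4, and MYC, TFAP4 and MXD4 kept their direction and their call under each of the 13 alternatives run (scaling by DESeq2's size factors or library size, the filter left out or set to 10 counts in each library, DESeq2, limma-voom, the replicate block, and each library left out). Their log2 fold changes ranged from 1.08 to 1.43 for MYC, from 1.33 to 1.55 for TFAP4 and from -1.03 to -0.84 for MXD4. MAX ranged from 0.19 to 0.27 and lost its call in 3 leave-one-out fits. MXD1, MXD3, MXI1 and MNT kept their direction and stayed outside the call in all 13. With the replicate number as a block, although the numbers do not pair the libraries, 6091 genes, 4 members and 76 list genes were called, against 6388, 4 and 79 without it. With a library left out, 5364 to 6551 genes, 3 to 4 members and 68 to 83 list genes were called. MYC counts per 100 antagonist counts moved without MXD3 to 4.43 (from 1.44, 1CT) and to 16.9 (from 4.24, 1CT-A), an alternative chosen after seeing the data, because the sum then holds fewer counts. With a library left out they ran from 1.26 to 1.74 (1CT) and 3.87 to 4.52 (1CT-A). Among 634 values of the 49 named list genes, 48 fell short of the threshold and none changed direction. Depth limits MYCN and MYCL, which are under 3 counts in every library.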

Other observations

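Read-through symbols held counts where some list genes had few or none. EIF4A1, a translation initiation factor gene used by every cell, had at most 5 counts in a library, while the read-through symbol SENP3-EIF4A1 had 11191 to 11921 counts in 1CT and 20727 to 23875 in 1CT-A (log2 fold change 0.35, standard error 0.06, edgeR adjusted p = 2.5e-04). PPAN, a ribosome production gene, had 0 counts in all 6 libraries and PPAN-P2RY11 had 7 to 9 counts in 1CT and 12 to 23 in 1CT-A. Neither EIF4A1 nor PPAN had enough counts for the test in the list of MYC-activated targets, and their own levels cannot be read from these counts. HSPE1, whose read-through symbol HSPE1-MOB4 was among the profiles nearest to MYC, rose from 117 ± 8.03 to 202 ± 6.67 CPM (SD, n = 3 each).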
